A study of Mus musculus with 168 samples.

Results

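Mir34b, Mir34c, Mir449a and Mir449c are 4 microRNA genes of 1 seed family that is known from ciliated cells, and they were followed here through the cortex of mice that carry expanded CAG repeats in Htt. They were chosen by name: 1 transcript of the count table corresponds to each of the 4 gene names in the GENCODE vM21 annotation, out of 1626 transcripts in the table, of which 1228 had a name. The cortex was profiled by small RNA sequencing in 168 libraries, 1 per mouse, from 7 genotypes at 2, 6 and 10 months with 8 mice per genotype and age. The lines Q20, Q80, Q92, Q111, Q140 and Q175 consisted of mice heterozygous for an Htt allele with a knock-in of human HTT exon 1 of the named CAG length, and the WT mice were littermates of the Q20 line with the mouse repeat of 7 CAG. All mice therefore kept at least 1 wild-type Htt allele, and all were on the C57BL/6 background. The Q20 and WT mice served as controls, and each line is 1 knock-in allele, so that repeat length and line cannot be told apart. The Q175 line arose by expansion within the Q140 line. The study's methods do not list the 8 libraries labelled as 6-month WT cortex, and these are shown apart and left out of the main tests. Nothing in these data marks ciliated cells other than the 4 genes themselves, so the name ciliated-cell microRNAs could not be checked against other markers. As for the tissue label, 9 of 10 microRNAs listed for neurons (Mir124a, Mir128, Mir9 and Mir138 genes, with Mir9-1 not used) summed to between 83286 and 124220 CPM (counts scaled to library size) in the other 160 libraries. No other brain region was compared, so this sum cannot tell cortex from other neural tissue.

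A microRNA pairs with target messages mainly through its seed, bases 2 to 8 of the mature strand, and microRNAs with the same seed can repress overlapping sets of messages. The Mir34 and Mir449 loci are known for their high expression in multiciliated epithelia, such as airway, oviduct and the ependyma and choroid plexus of the brain, where they act together in the formation of motile cilia by repressing inhibitors of centriole and cilium assembly, such as Cp110. Mir34a, another locus with the same seed, is a target of p53 and is expressed more broadly, neurons included. In a cortex dissection, cells with motile cilia would come from the lining of the ventricle and the plexus within it.

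The mature sequences are shown because the shared seed is what makes the 4 genes a family, while the bases after it differ between the genes. The sequences are from RefSeq (GRCm38.p6), written 5′ to 3′, with the seed in capitals.
mmu-miR-34b-5p: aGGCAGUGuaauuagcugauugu
mmu-miR-449a-5p: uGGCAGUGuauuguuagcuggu
mmu-miR-449c-5p: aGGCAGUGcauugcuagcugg
mmu-miR-34a-5p: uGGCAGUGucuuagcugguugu
mmu-miR-34b-3p: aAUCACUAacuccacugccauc
mmu-miR-34c-3p: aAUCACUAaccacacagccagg
mmu-miR-34c-5p, known as a member of the same seed family, was not used here. Among the 1738 mature entries of the table, 4 held the seed GGCAGUG, those of Mir34a, Mir34b, Mir449a and Mir449c on their 5p arms. The 3p arms of Mir34b and Mir34c shared another seed, AUCACUA, which no other mature entry of the table had. Compared base by base from base 1 without gaps, miR-449a-5p and miR-449c-5p were identical at 18 of 21 positions, miR-34b-3p and miR-34c-3p at 17 of 22, and miR-34b-5p and miR-449a-5p at 10 of 22. By this measure miR-34a-5p was identical to miR-449a-5p at 15 of 22 positions and to miR-34b-5p at 11 of 22. An added base in 1 sequence shifts the rest and lowers such a value. A count is given per hairpin transcript, so the 5p and 3p arms of a gene are counted together.

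The 4 genes lie in 2 clusters of the GRCm38 genome. Mir34b (ENSMUST00000083558) is at chr9:51103562-51103645 and Mir34c (ENSMUST00000083653) at chr9:51103034-51103110, both on the minus strand, with 451 bases between the hairpins. Both fall in an intron of Btg4, a gene on the opposite strand, and overlap none of its exons. Mir449c (ENSMUST00000102192) is at chr13:113035983-113036091 and Mir449a (ENSMUST00000083641) at chr13:113037534-113037624, both on the plus strand and 1442 bases apart. Both lie in introns of Cdc20b and on its strand. The Cdc20b locus is itself known from multiciliated cells.

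Library totals ranged from 2041741 to 11646287 estimated counts, with a median of 4810487, and the medians at 2, 6 and 10 months were 5039434, 4770465 and 4722658. The column labels give a number after the letter L, taken here as the lane although the labels do not say so, and no sequencing run. By that number 2 and 10 months shared 1 lane, 6 months shared 6 with 2 months and 3 with 10 months, and the same number need not be the same run. At 6 months 11 libraries carried another library code (V in place of LB), and their L number repeats the number of that code, so that their lane is unknown. Mir34c was counted 1105 to 13023 times per library and Mir34b 76 to 660 times. Mir449a had 3 to 123 counts and Mir449c 0 to 24 counts per library, with 0 in 6 libraries. A count of 0 in those libraries allows a level of up to 0.537 to 0.775 CPM, and this limit and the counting errors below cover counting error only. Every value of the 4 genes was a whole number in all libraries. Levels are given as CPM on TMM-scaled library totals.

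Per 100 bases of hairpin, the median level over the 160 libraries was 783 CPM for Mir34c, 193 for Mir34a, 43.5 for Mir34b, 4.03 for Mir449a and 0.739 for Mir449c. The Mir34c to Mir34b ratio per length varied little, with medians of 17.8, 19.4 and 16.7 at 2, 6 and 10 months and a range over all these libraries of 12 to 25.3. The spread between mice of a group, as the coefficient of variation, had a median over 20 groups of 25.2% for Mir34b and 25.7% for Mir34c, against 7.27% and 1.83% from counting error alone. For Mir449a it was 21.6% against 22.9% from counting, and for Mir449c 56.6% against 47.2%. The Mir34b and Mir34c libraries of a group thus differed by more than their counts allow, whereas the spread of Mir449a and Mir449c was near the counting error.

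**Figure D1:**
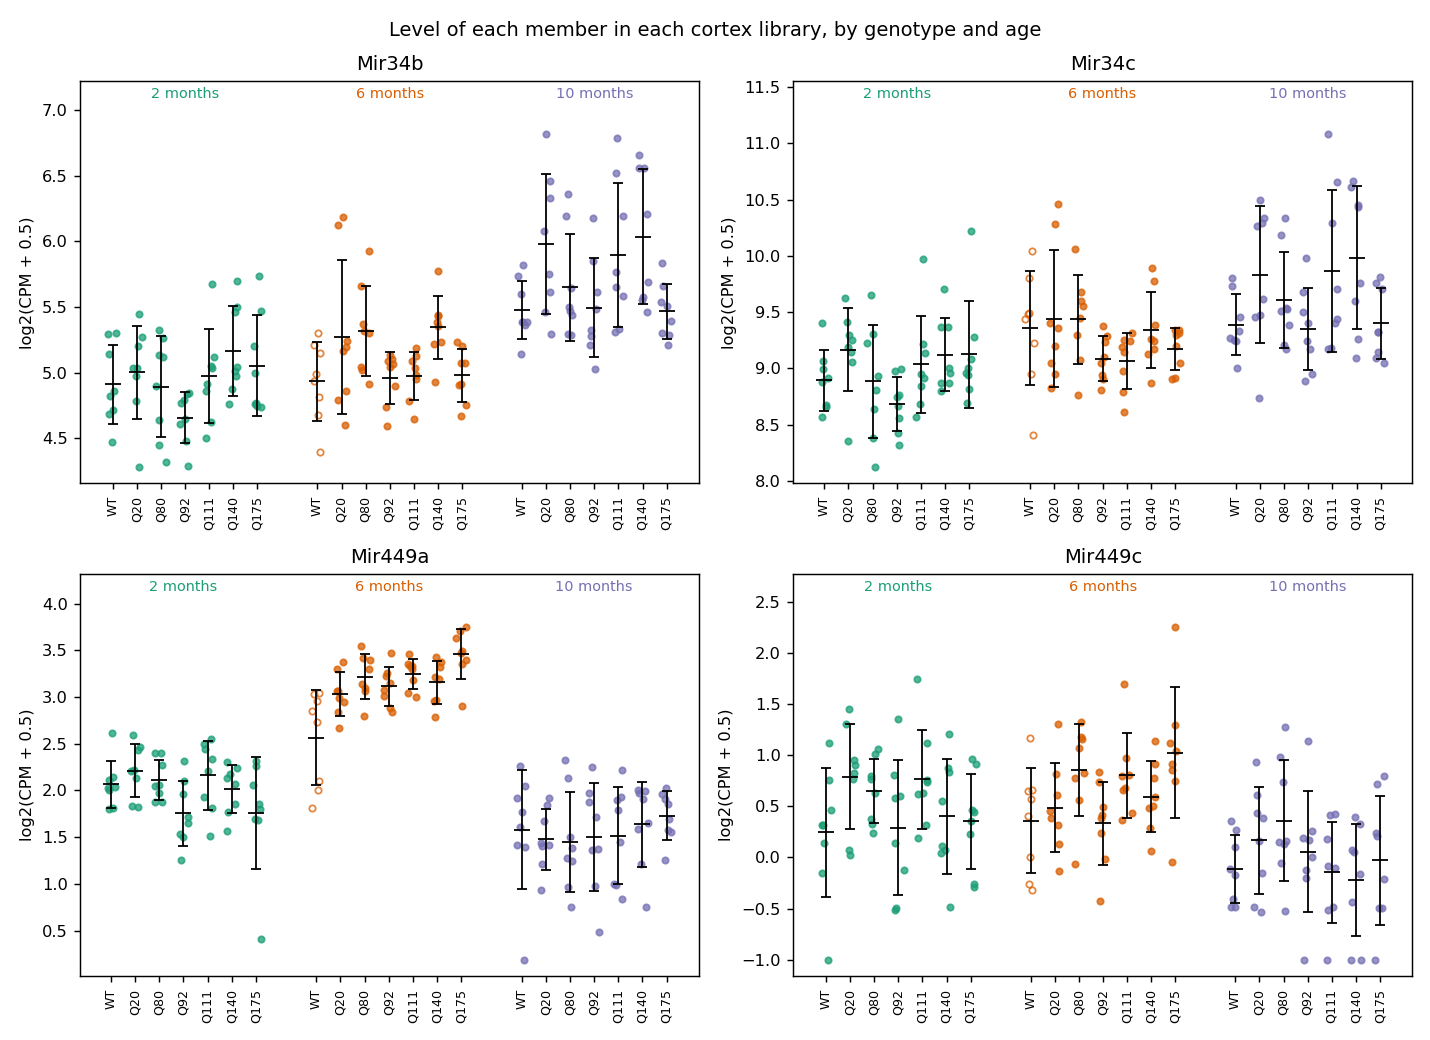
Level of Mir34b, Mir34c, Mir449a and Mir449c in each of 168 libraries as log2(CPM + 0.5), by genotype and age, with the mean and SD of each group of 8 mice in black. Open circles are the 6-month WT libraries. Mir34b and Mir34c sit higher at 10 than at 2 months and spread widely in Q20, Q111 and Q140 at 10 months, while Mir449a is highest at 6 months in every genotype shown with filled circles.

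The first question was whether the family follows the CAG length. None of the 4 genes was associated with Q at any age. At 2 months Mir34b lay at 21.7 to 39.0 CPM in WT mice with a median of 28.2, at 19.0 to 43.1 in Q20 mice with a median of 32.3, and at 26.2 to 52.9 in Q175 mice with a median of 29.1. The 3 ranges overlapped over most of their length. At 10 months Mir34b reached 112 CPM in Q20 mice (lowest 38.8, median 60.3), 109.7 CPM in Q111 mice (lowest 39.1, median 52.0) and 101 CPM in Q140 mice (lowest 43.6, median 62.4), but only 56.6 CPM in Q175 mice (lowest 36.5, median 43.2) and 55.9 CPM in WT mice (lowest 34.8, median 41.4). The high libraries were thus found in a control line and in mutant lines. Mir34c was likewise most variable in these lines at 10 months, with 427 to 1448 CPM in Q20 mice (median 1005), 579 to 2164 in Q111 mice (median 766), 545 to 1619 in Q140 mice (median 1126) and 529 to 900.4 in Q175 mice (median 640.1).

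With CAG length as a numeric variable, fitted across all microRNAs by the edgeR quasi-likelihood test with Benjamini-Hochberg adjustment, 0 of the 4 genes passed at 2 months, where 0% of 327 microRNAs passed. At 6 months 0 of 4 passed against 2.75% of 327, and at 10 months 0 of 4 against 8.84% of 328. In the combined test of these last 2 ages (meta-analysis) 0 of 4 passed against 11.9% of 327. At an unadjusted p under 0.05 the edgeR fits held 0, 2 and 0 of the 4 genes at 2, 6 and 10 months and 1 in the meta-analysis, where 3.98%, 20.2%, 22% and 26.9% of all microRNAs lay under it, and DESeq2 called 0 in each. The coefficients are log2 changes per 100 CAG. For Mir34b they were 0.10 ± 0.08 (SE) at 2 months, -0.22 ± 0.11 at 6 months and 0.01 ± 0.12 at 10 months. For Mir34c they were 0.09 ± 0.09, -0.25 ± 0.11 and 0.06 ± 0.14, with the 6-month value at an adjusted p of 0.220 in the edgeR fit. Among the 6-month Q20 mice, F2 and M2 lay 0.85 and 0.91 above their group's mean in Mir34b on the log2 scale. In Mir34c they lay 0.84 and 1.02 above it. How far the 6-month coefficients depend on these libraries was not tested. Mir449c, the least abundant, had coefficients of -0.14 ± 0.19, 0.33 ± 0.20 and -0.10 ± 0.25.

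Mir449a came nearest to the threshold. At 6 months it lay at 5.84 to 9.90 CPM in Q20 mice (median 7.65) and at 6.97 to 12.95 CPM in Q175 mice (median 10.7), so that the ranges overlapped while the medians differed. Its coefficient was 0.22 ± 0.08 per 100 CAG at 6 months (adjusted p = 0.113, edgeR), -0.16 ± 0.09 at 2 months and 0.09 ± 0.13 at 10 months. The meta-analysis Z of Mir449a was 2.45, with an adjusted p of 0.0871. The call depended on the setting: Mir449a passed in the meta-analysis with lane as a covariate at 2 and 10 months (Z = 2.77, adjusted p = 0.0433) and with the 6-month WT libraries included (Z = 3.41, adjusted p = 0.00410). With those WT libraries in the fit, the number of microRNAs called at 6 months went from 9 to 156. A fit with the level of the epithelial microRNA list (below) as covariate, chosen after seeing the data, gave Mir449a 0.27 per 100 CAG at 6 months (adjusted p = 0.0315).

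Each mutant genotype was then compared with the controls of its age, Q20 and WT together at 2 and 10 months and Q20 alone at 6 months. In 15 comparisons, and thus 60 tests of a member, edgeR called 0 members, 5 tests (8.33%) had an unadjusted p under 0.05, and DESeq2 called 0. Over all microRNAs 421 of 4888 such tests (8.61%) had an unadjusted p under 0.05, and 14.7% did for Q92 at 2 months, where 3 of the 5 fell. The background in these comparisons was 0% of microRNAs called in 12 of them, 0.311% for Q92 at 6 months, 2.77% for Q175 at 6 months and 12.2% for Q175 at 10 months. The differences from controls ran from -0.44 to 0.32 on the log2 scale for Mir34b, from -0.47 to 0.40 for Mir34c, from -0.42 to 0.40 for Mir449a and from -0.44 to 0.67 for Mir449c. Their SE lay between 0.11 and 0.46, which sets the precision of these comparisons.

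At 2 months the means of Mir34b and Mir34c were lowest in Q92 mice, though not beyond the test's threshold. Mir34c lay at 320 to 509 CPM in Q92 mice (median 418), and at 327 to 788 CPM in the 16 controls (median 533). The difference was -0.37 ± 0.13 on the log2 scale (adjusted p = 0.173, edgeR) for Mir34c and -0.33 ± 0.11 (adjusted p = 0.173) for Mir34b. The lowest 2-month mean of Mir449a was also that of Q92 mice, at 2.96 ± 0.86 CPM (SD, n = 8), with a difference of -0.42 ± 0.16 (adjusted p = 0.193). None of the 3 differences passed the threshold.

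At 6 months Mir449a differed from the Q20 mice by 0.40 ± 0.14 in Q175 mice (adjusted p = 0.145, edgeR). In Q111 mice it differed by 0.40 ± 0.14 (adjusted p = 0.980), with the lowest p of all 326 microRNAs tested. All Q111 males carried code V and all Q20 mice code LB. With the code as covariate, the Q111 difference therefore rests on the females alone, 4 in each group. The Q20 females had lane number 4, and the Q111 females lane numbers 3 and 4. Over all 8 mice of each group the means were 9.06 ± 1.04 CPM (SD) in Q111 and 7.76 ± 1.34 CPM in Q20 mice. The lane numbers of the 6-month Q20 libraries were also those of 4 Q111 libraries and of 0 libraries of Q80, Q92, Q140 or Q175, so that lane number and genotype cannot be told apart in the other comparisons with Q20. In those 4 Q111 libraries Mir449a lay at 7.495 to 10.5 CPM, against 5.84 to 9.90 in the Q20 libraries. Without the library code as covariate, the Q175 difference was 0.46 and passed (adjusted p = 0.0294, edgeR).

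When the genotypes of an age were put in order of their mean level, no 2 neighbours differed by more than the larger of their SDs in any of 68 neighbouring pairs over the 4 genes and 3 ages. The widest ratio of highest to lowest genotype mean was 1.56 for Mir34b and 1.63 for Mir34c, both at 10 months with Q140 highest, and 1.42 for Mir449a at 2 months with Q20 highest. For Mir449c it was 2.16 at 6 months, where Q175 mice had 1.73 ± 1.12 CPM and Q92 mice 0.803 ± 0.338 (SD, n = 8 each).

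**Figure D2:**
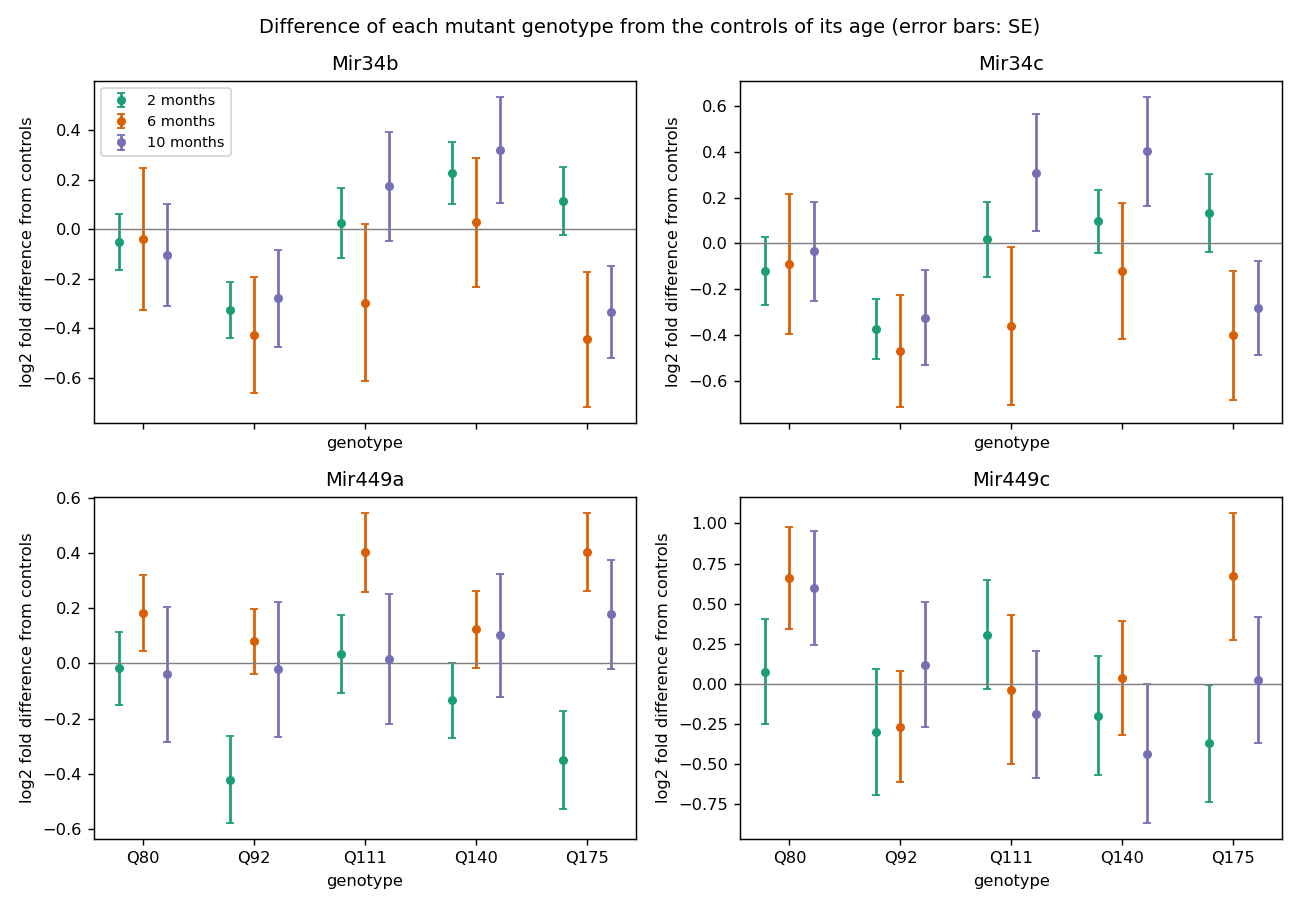
Difference of each mutant genotype from the controls of its age on the log2 scale, for the 4 genes, with SE as error bars and ages in colour. Points scatter on both sides of 0, with the 6-month Mir34b and Mir34c values mostly below it, the 6-month Mir449a values above it, and no value past the adjusted threshold. All 6-month values share the same Q20 controls, of which F2 and M2 were high in Mir34b and Mir34c.

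Between the 2- and 10-month control libraries the 2 clusters went in opposite directions. In the 16 control mice of 2 months Mir34b lay at 19.0 to 43.1 CPM (median 31.6), and in the 16 control mice of 10 months at 34.8 to 112 CPM (median 48.2). Mir34c went from 327 to 788 CPM (median 533) at 2 months to 427 to 1448 CPM (median 707) at 10 months. The ranges overlapped for both genes. Mir449a went the other way, from 2.98 to 5.60 CPM (median 3.85) at 2 months to 0.640 to 4.301 CPM (median 2.38) at 10 months. Mir449c lay at 0 to 2.25 CPM (median 1.03) at 2 months and at 0.192 to 1.41 CPM (median 0.50) at 10 months, levels of a few counts per library.

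All 4 genes passed the edgeR test between 2 and 10 months in controls, as did 49.4% of 328 microRNAs, 26.2% higher and 23.2% lower at 10 months. Mir34b was 1.75-fold higher at 10 months (log2 change 0.81 ± 0.13, adjusted p = 6.89e-06) and Mir34c 1.54-fold higher (0.62 ± 0.14, adjusted p = 0.000340). Mir449a fell by 0.65 on the log2 scale (SE 0.15, adjusted p = 0.000409) and Mir449c fell by 0.93 (SE 0.30, adjusted p = 0.00848). DESeq2 also called the 4 genes, and the 4 passed with Q20 mice as the only controls. With so many microRNAs called in both directions, a call is not particular to these genes. The 2 ages had 1 lane number in common, and age was not compared within a lane. An effect of age and an effect of the sequencing run therefore cannot be told apart here. The same directions were seen in the medians of each genotype: Mir34b and Mir34c had a higher median at 10 than at 2 months in 7 of 7 genotypes, a pattern of 24.4% of microRNAs, and Mir449a and Mir449c a lower one in 7 of 7, a pattern of 23.8%. The ratio of medians ranged from 1.39 to 1.95 over genotypes for Mir34b, from 1.26 to 2.23 for Mir34c, from 0.528 to 0.961 for Mir449a and from 0.392 to 0.708 for Mir449c.

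Markers of other cells were compared between the same libraries. Of the 8 microRNAs of the epithelial list (Mir141, Mir200a, Mir200b, Mir200c, Mir429, Mir96, Mir182 and Mir183), 0 were higher and 8 lower at 10 months in controls. Their sum, in which Mir182 has the largest part, ranged from 267 to 32210 CPM in control mice at 2 months (median 12390). At 10 months it ranged from 357 to 1749 (median 602). Over all 56 libraries of each age, mutant mice included, the medians were close, at 625 and 600 CPM, and the means were 7771 and 710. Of 7 microRNAs linked to the choroid plexus, 3 were higher (Mir204, Mir1298 and Mir1912) and 3 lower (Mir211, Mir764 and Mir1264) at 10 months, and their sum lay at 3126 to 4383 CPM at 2 months and 2645 to 12376 at 10 months. Of the 8 neuron microRNAs tested, 4 were higher and 0 lower. Over all 328 microRNAs 49.4% were called, 26.2% higher and 23.2% lower, so a call alone is not particular to a list. The sum of 3 erythrocyte microRNAs (Mir144, Mir451a and Mir486) had a median of 3314 CPM over all 2-month libraries and 2553 over all 10-month libraries. With the choroid plexus level as covariate, chosen after seeing the data, the age changes were 0.63 for Mir34b, 0.47 for Mir34c, -0.58 for Mir449a and -0.90 for Mir449c, each past the threshold. With the epithelial level as covariate they were 0.70, 0.57, -0.70 and -0.67, and Mir449c no longer passed (adjusted p = 0.254, edgeR). In controls the epithelial level itself differed between the ages, so this fit cannot fully separate that level from age. In bulk tissue, fewer cells of a type and less RNA per cell cannot be told apart.

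The 6-month libraries stood apart in Mir449a. All 48 libraries of the 6 genotypes had 5.84 to 12.95 CPM (median 8.84), above every 2-month library (0.829 to 5.60 CPM, median 3.64) and every 10-month library (0.640 to 4.51 CPM, median 2.53). Such a complete separation upwards was found in 5 of 328 microRNAs (1.52%), and a complete separation downwards in 3.35%. The libraries with code V (7.73 to 12.5 CPM, n = 11) and code LB (5.84 to 12.95 CPM, n = 37) were both high. The 8 libraries of 6-month WT mice, all with lane number 3, as were 3 of the Q20 libraries, had 3.0 to 7.72 CPM of Mir449a (median 6.42) and overlapped the 2-month range. Mir449c had medians of 0.983, 1.14 and 0.547 CPM at 2, 6 and 10 months with overlapping ranges. The 6-month medians of Mir34b and Mir34c, 33.5 and 603 CPM, lay between those of the other ages. The column labels of the 48 libraries name the tissue and the sex. Those of the 2-month, 10-month and 6-month WT libraries have another form, shared between them. The high level of Mir449a thus falls together with a form of label as well as with age. What the form of the label stands for, and whether the ages were sequenced in separate runs, is not given in the sources used here. The part of a run or batch in this difference was not tested.

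The 6-month WT libraries are described as values alone. Mir34b lay at 20.5 to 38.9 CPM (median 30.7), against 23.8 to 72.2 CPM (median 35.8) in the Q20 libraries of the same age. Mir34c lay at 340.3 to 1055 CPM (median 705), against 453.9 to 1408 CPM (median 621). Mir449c lay at 0.304 to 1.76 CPM (median 0.906), against 0.413 to 1.97 CPM (median 0.841). Other lists differed in these WT libraries: erythrocyte microRNAs summed to 2854 to 8410 CPM, against 3229 to 4488 CPM in the other 48 libraries of 6 months.

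Sex and the change of the Q association with age were tested in the same way. Between sexes 0 of 4 genes passed at 2, 6 and 10 months, against backgrounds of 0.612%, 0% and 0.305%, with 0 members at an unadjusted p under 0.05 in edgeR and 0 called by DESeq2. The male minus female difference was between -0.13 and 0.14 on the log2 scale for each gene and age, with SE of 0.07 to 0.27. The interaction of age and Q over 2 and 10 months called 0 of 4 genes against 1.83% of 328, with 0 at an unadjusted p under 0.05 and 0 by DESeq2. Its largest value among the members was 0.25 ± 0.15 per 100 CAG for Mir449a.

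The last question was whether the members vary together between mice. For this the log2(CPM + 0.5) of each library was taken as a deviation from the mean of its genotype and age. Mir34b and Mir34c, neighbours on chromosome 9, varied together closely at each age: Pearson's r was 0.882 at 2 months (n = 56), 0.916 at 6 months (n = 48) and 0.941 at 10 months (n = 56), and Spearman's rho was 0.862, 0.868 and 0.938. Each had a permutation p of 1e-05, the smallest that 100000 resamples within genotype can give, and an adjusted p of 6e-05 over the 18 relations computed. Without the 2 libraries farthest from the median of Mir34b, r was 0.858, 0.873 and 0.943. With deviations from lane means in place of genotype means, r was 0.895, 0.940 and 0.952, where the 6-month value rests on the 36 libraries that share their number with another. With the level of the choroid plexus list as covariate the 3 relations still passed.

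The Mir449 genes did not follow. Mir449a and Mir449c, neighbours in introns of Cdc20b, had r of -0.217, -0.137 and 0.295 at the 3 ages (rho -0.231, -0.117 and 0.248), with adjusted permutation p of 0.314, 0.646 and 0.108. At the counts of Mir449c, a relation between them could go undetected. Between the clusters, 1 of 12 relations passed: Mir34b and Mir449a at 10 months, with r = -0.359 (permutation p = 0.00786, adjusted 0.0354) and rho = -0.365 (p = 0.00928, adjusted 0.0418). Without the 2 libraries farthest from the median of Mir34b, r was -0.430, and with deviations from lane means it was -0.300. It did not pass with a pseudocount of 5 CPM (r = -0.350, adjusted p = 0.0532) or with the choroid plexus level as covariate (r = -0.038, adjusted p = 0.951). Mir34c and Mir449a at 10 months had r = -0.229 (adjusted permutation p = 0.286).

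**Figure D3:**
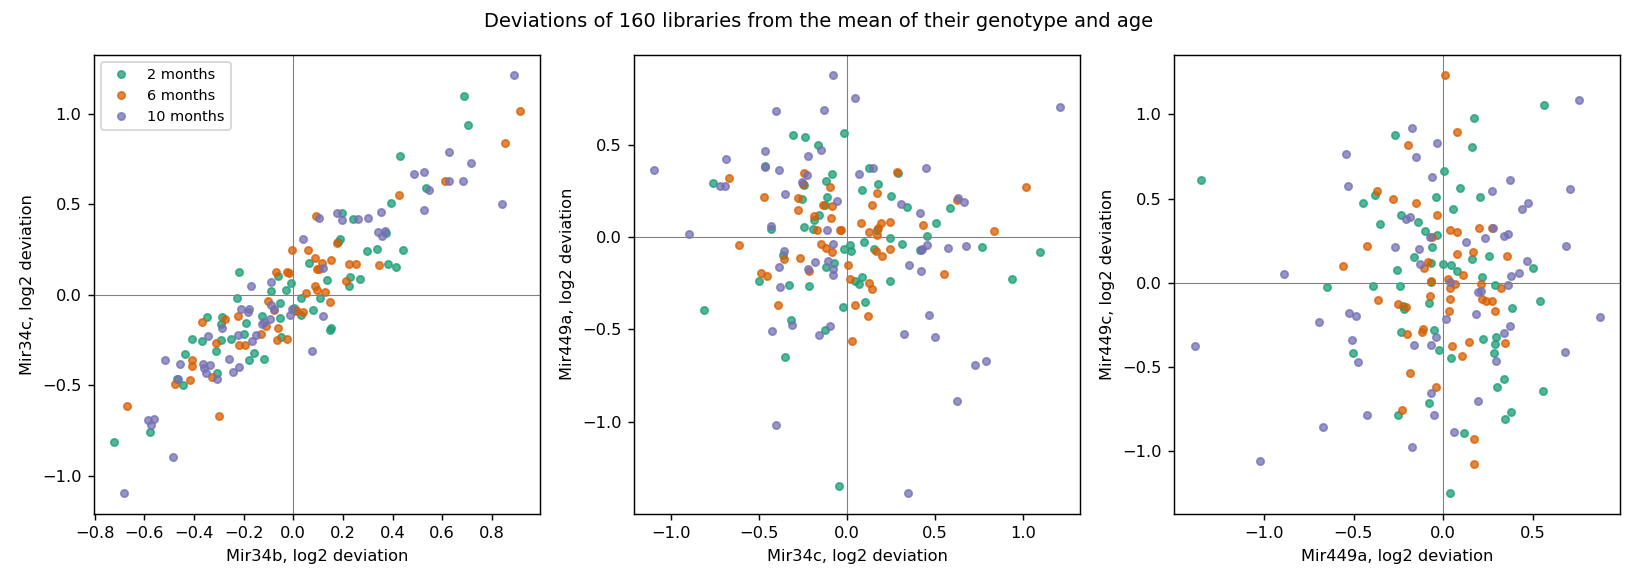
Deviations of 160 libraries from the mean of their genotype and age, in log2 units, for Mir34c against Mir34b, Mir449a against Mir34c and Mir449c against Mir449a, with ages in colour. The Mir34 pair lies along a line at each age (r of 0.882 to 0.941), and the other pairs form clouds.

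The microRNAs most like Mir34b and Mir34c in this respect were those linked to the choroid plexus, the secretory epithelium of the ventricles. Over the 160 libraries and 283 microRNAs with a mean of at least 5 counts, the 5 with the highest Spearman's rho to Mir34b were Mir34c (0.905), Mir448 (0.695), Mir204 (0.693), Mir1298 (0.661) and Mir1912 (0.633). For Mir34c they were Mir34b (0.905), Mir448 (0.680), Mir1298 (0.667), Mir1912 (0.638) and Mir204 (0.619). Mir448, Mir1264, Mir1298 and Mir1912 are among the microRNAs known as neighbours within the serotonin receptor gene Htr2c, which the choroid plexus expresses strongly. Not every microRNA of that gene is named here. Mir204 is known from choroid plexus and pigment epithelium. The median rho over all microRNAs compared was -0.007 for Mir34b and 0.004 for Mir34c. Of the other microRNAs on that list, Mir1264 ranked 6 for both genes, Mir764 ranked 8 for both (0.310 and 0.402), and Mir211 had a rho of -0.142 and -0.056. All microRNAs of a library share its total and its lane, and the values are given as a description.

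The summed level of the 7 choroid plexus microRNAs, in which Mir204 has the largest part, was correlated with Mir34b at r = 0.665, 0.701 and 0.892 at 2, 6 and 10 months, and with Mir34c at r = 0.544, 0.760 and 0.825. Without the 2 libraries farthest from its median, r was 0.571, 0.630 and 0.869 for Mir34b and 0.294, 0.704 and 0.804 for Mir34c, so that the value of Mir34c at 2 months rests largely on those libraries. For Mir449a, r was -0.044, 0.080 and -0.385. For Mir449c it was -0.051, 0.128 and -0.108, and for Mir34a 0.127, -0.263 and 0.032. The list's sum was most variable at 10 months and in the groups where the Mir34 genes were. At that age it lay at 2965 to 12376 CPM in Q20 mice (median 5539), 3021 to 12205 in Q111 mice and 3039 to 10853 in Q140 mice. It lay at 2645 to 6080 CPM in WT mice (median 3271) and at 2713 to 3347 in Q175 mice (median 2922). In Q175 mice at 10 months 4 of these 7 microRNAs were called lower than in the pooled Q20 and WT controls and 0 higher. Over all 327 microRNAs 6.73% were called lower and 5.5% higher in that comparison. Mir34b and Mir34c differed by -0.33 ± 0.18 (adjusted p = 0.253, edgeR) and -0.28 ± 0.21 (adjusted p = 0.420). How much choroid plexus each dissection held was not tested.

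**Figure D4:**
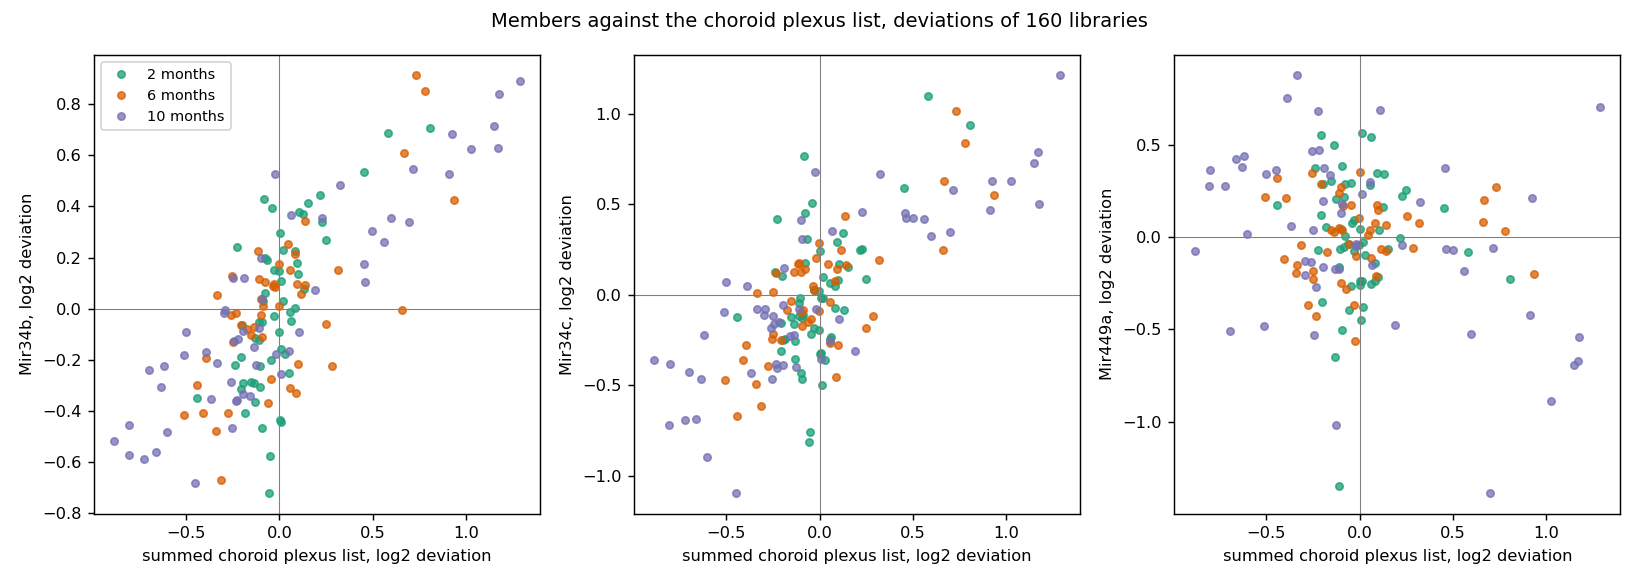
Deviations of Mir34b, Mir34c and Mir449a against that of the summed choroid plexus list, in log2 units, in 160 libraries with ages in colour. Mir34b and Mir34c rise with the list, most clearly at 10 months (r = 0.892 and 0.825), and Mir449a does not (r = -0.385).

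For Mir449a the 5 highest values of rho were 0.339 (Mir3099), 0.328 (Mir296), 0.321 (Mir1247), 0.309 (Mir3547) and 0.308 (Mir344c). For Mir449c they were 0.294 (Mir3081), 0.282 (Mir346), 0.249 (Mir138-1), 0.244 (Mir26a-1) and 0.230 (Mir148b). Values of this size at a few counts per library are weak, and no choroid plexus microRNA was among them. The epithelial list was correlated with Mir449a at r = -0.021, 0.325 and 0.074 at the 3 ages, and with Mir34b at r = -0.229, -0.064 and -0.126. Library totals were correlated with Mir449a at r = 0.365 at 2 months and with Mir449c at r = -0.386 at 10 months.

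Of the 2 further genes of the family, Mir449b, which lies between Mir449c and Mir449a, was listed at 0 in 116 of 168 libraries with at most 3 counts, and was not assessed. Mir34a had 133 to 282 CPM in the 160 libraries (median 197) and a narrow spread, with a rho of 0.103 to Mir34b and 0.114 to Mir34c. It was higher at 10 than at 2 months in controls (log2 change 0.35 ± 0.06, adjusted p = 1.17e-05, edgeR). Unlike Mir34b, Mir34c, Mir449a and Mir449c, it was called with Q in the meta-analysis (Z = -3.07, adjusted p = 0.0222), and it was lower in Q175 mice at 10 months (-0.27 ± 0.08, adjusted p = 0.0310). Whether its association with Q differed from those of the other genes was not tested.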

How the data were processed

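Small RNA (miRNeasy extraction, Illumina libraries) was sequenced from cortex, with CASAVA 1.8.2 named in the submitters' processing notes. The authors clipped adapters, aligned reads with STAR to the mouse genome and deposited, without normalization, estimated counts for Ensembl transcripts in each library. The methods name HTSeq for gene counts, but 48.1% of the values above 0 were not whole, so the counter that made this table is unknown, and how reads that fit more than 1 hairpin were divided is not given in the sources used here. The deposited table of FPKM values was not used here. Counts were rounded to whole numbers, transcripts were named with GENCODE vM21 (GRCm38), and library sizes were totals over all transcripts.

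Tests were run with edgeR 4.0.16 in R 4.3.3 (TMM, robust quasi-likelihood F test, two-sided) over the microRNAs of the study's list of 480 names, 329 with a transcript, that had at least 1 count in the fit. Sex of the cage (2 libraries differ from the label) and, at 6 months, the library code were covariates. The SE is the coefficient divided by the root of F. The meta-analysis added the 6- and 10-month Z and scaled the sum to unit variance. Benjamini-Hochberg adjustment was applied within a comparison, with an FDR of 0.05. DESeq2 1.42.0 and the other alternatives are described in the closing section. Covariation used log2(CPM + 0.5) and 100000 permutations within genotype (NumPy 2.4.6). Code was tested on simulated data.

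The genes, the marker lists and the rule for the microRNAs most alike (the 5 highest Spearman's rho among microRNAs with a mean of at least 5 counts) were chosen with earlier results of these data known. Depth was 2041741 to 11646287 counts per library, at which counting error dominates for Mir449a and Mir449c. Replicates were separate mice.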

Additional observations from a re-analysis of the deposited data

Results flagged for a closer look

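In 8 of 84 groups of 8 mice (4 genes in 21 groups), 1 library lay far from the others by Dixon's ratio of its gap to the group's range, above the 95% critical value for 8 samples. For independent groups of normally distributed values, chance would flag about 1 in 20. CPM values need not be normal, all flagged libraries were on the high side, and Mir34b and Mir34c varied together. The count of flags is therefore not set against chance here. At 2 months in Q111 mice, the second male (M2) had 50.7 CPM of Mir34b against a next highest of 34.3 (ratio 0.575) and 1005 CPM of Mir34c against 593 (ratio 0.659). The choroid plexus list summed to 6372 CPM in that library, with a group median of 3430. At 2 months in Q175 mice, the first male (M1) had 1196 CPM of Mir34c against 622 (ratio 0.734), with a choroid plexus sum of 5763 CPM and a group median of 3583. The part of choroid plexus tissue in these values was not tested.

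The other flagged libraries were high in Mir449 genes. At 2 months in WT mice, F4 had 5.60 CPM of Mir449a against 3.92 (ratio 0.642). For Mir449c, F1 of the 2-month Q111 mice had 2.86 CPM against 1.67 (ratio 0.535), M3 of the 6-month Q111 mice 2.75 against 1.47 (ratio 0.655), F1 of the 6-month Q175 mice 4.29 against 1.96 (ratio 0.608), and M4 of the 10-month Q92 mice 1.71 against 0.693 (ratio 0.595). The choroid plexus sums of these 5 libraries were 3945, 2678, 3471, 2990 and 2852 CPM, with group medians of 3783, 3430, 2867, 2917 and 3207.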

How the results depend on the processing

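Of 277 recomputed counts of members passing a test, 271 stayed within 1.5 times the count given above. The 6 that did not each held 1 member, Mir449a, where the report has 0: the association with Q at 6 months and the meta-analysis, with the 6-month WT libraries included (1 in each) and with the epithelial list level as covariate (1 in each), the meta-analysis with lane as covariate (1), and Q175 mice at 6 months without the library code (1). Why was not tested. The fall of Mir449c between 2 and 10 months did not pass with the epithelial level (-0.67), and it was not tested by filterByExpr, which dropped Mir449c there.

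None of the values that changed sign was past the threshold under either setting. For Mir34b with Q at 10 months (0.01), the coefficient was -0.017 by library size alone, -0.00076 by DESeq2, -0.0020 with the replicate block, -0.015 with lane and -0.011 with the epithelial level. With the choroid plexus level as covariate the meta-analysis Z went from -1.31 to 0.74 for Mir34b and from -1.14 to 0.53 for Mir34c, and the age by Q interaction 0.059 for Mir34b, 0.14 for Mir34c and -0.014 for Mir449c. That interaction of Mir449c was -0.026 with the epithelial level. Without the Q175 mice, Mir449c with Q at 2 months was 0.0015, the meta-analysis Z was 0.39 for Mir34b, 0.063 for Mir34c and -0.24 for Mir449c, and the interaction was 0.11, 0.25 and -0.19. In covariation, deviations from genotype and lane means gave r = 0.014 for Mir34b and Mir449c and 0.071 for Mir34c and Mir449a at 2 months, and -0.060 for the latter at 6 months. The choroid plexus level as covariate gave Mir34c and Mir449a r = 0.014, -0.015 and 0.169 at 2, 6 and 10 months (the last from -0.229), and at 10 months 0.009 for Mir34b and Mir449c and 0.054 for Mir34c and Mir449c. The covariates of list level and the fits without Q175 mice were chosen after seeing the data.

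The titles number the mice within a sex. Of 444 same-numbered pairs of libraries, 174 had a correlation of deviations over 0.1 (median -0.011, range -0.918 to 0.897). Pairs with different numbers were not computed. These correlations cannot show whether the numbers pair mice in the design, and the numbers were not used as pairs in the main tests. With the replicate block, 4 members passed between 2 and 10 months and 0 in the other comparisons, as without it. Counts over all microRNAs moved by more than 1.5 times in 45 of 274 cases, for example from 9 to 15 at 6 months with the replicate block. Depth limits Mir449c most: 45 of 168 libraries had fewer than 3 counts of it. Lane number and genotype cannot be told apart in the 6-month comparisons with Q20, except for part of Q111.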
